A study of Homo sapiens with 12 samples.

Results

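The polyadenylated RNA of OCI-AML2 was compared with that of MOLM-13, both cultured without the drug that the study tested. Both are established human cell lines of acute myeloid leukaemia (AML), a cancer in which myeloid precursors stop maturing and keep dividing. Of the 12 libraries of the series, the 6 vehicle libraries were used here, 3 of OCI-AML2 and 3 of MOLM-13, chosen by their labels. The other 6 received selinexor, an inhibitor of the nuclear export receptor XPO1, at 200 nM in OCI-AML2 and 75 nM in MOLM-13, and none of them was used. Both vehicle groups were given DMSO for 36 h, after growth in RPMI medium with foetal bovine serum, and the submitters describe each triplicate as biologically independent. The label calls the material leukaemic blasts, which here means cultured cells of a line. Each line stands for a single patient's leukaemia. The lines were counted in separate tables, so line and library batch cannot be told apart in any value below.

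Leukaemia lines differ in how far along the myeloid path their cells stand. Monocytes carry lysozyme, the NADPH oxidase, Toll-like receptors and Fc receptors, whereas neutrophil precursors fill their granules with elastase, proteinase 3 and myeloperoxidase before they make S100A8, S100A9 and later granule proteins. In many AML cells, HOXA genes and their partner MEIS1 stay on, and the receptor FLT3 signals through STAT5. MOLM-13 is widely used as a model of FLT3 internal tandem duplication and of the KMT2A-MLLT3 fusion.

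Total counts were 9506571 to 11769061 in the OCI-AML2 libraries and 8160133 to 9444344 in the MOLM-13 libraries. Levels are given as CPM, the usual depth-scaled unit, in which a gene's count is set against the total of its library after joint scaling of all 6. A gene with 3 counts lay between 0.249 and 0.375 CPM depending on the library, and this floor reflects counting error alone. The tables listed 18304 gene symbols between them, of which 15615 were in both, 1484 in that of OCI-AML2 only and 1205 in that of MOLM-13 only. The tables also cover the selinexor libraries, and 424 of the 1484 and 542 of the 1205 had no count in the vehicle libraries. A symbol missing from a table was set to 0 there. Spearman's rho between libraries was 0.985 to 0.987 within a line and 0.924 to 0.928 between lines, over genes, which are not independent replicates. As a check of the labelled cell type, both lines had the myeloid factors SPI1 (mean 359 and 191 CPM in OCI-AML2 and MOLM-13) and CEBPA (498 and 621), the surface protein CD33 (60.8 and 37.6) and the pan-leukocyte phosphatase PTPRC (313 and 111). The summed level of 11 T lymphocyte markers present in the tables was 2 to 2.91 CPM over the 6 libraries, and that of 11 B lymphocyte markers 6.10 to 12.6 CPM. Sums of other lineage lists were higher. In OCI-AML2 and MOLM-13, NK cell markers summed to 94.9 to 106 and 159 to 168 CPM. Megakaryocyte and platelet markers summed to 155 to 165 and 103 to 117 CPM. Erythroid markers summed to 909 to 955 and 1080 CPM. Among them CA2, at 208 and 784, made up most of the sum in MOLM-13 but not in OCI-AML2. GYPC (26.9 and 13.7), EPOR (11.5 and 30.9) and BLVRB (1.89 and 9.9) added little in either line. Epithelial, fibroblast and endothelial markers summed to 54 to 62 and 21.1 to 22.7 CPM.

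Most genes differed between the lines. Of 12192 genes tested with edgeR's quasi-likelihood test, 8816 (72.3%) had a Benjamini-Hochberg adjusted p under 0.05, 4461 (36.6%) higher in OCI-AML2 and 4355 (35.7%) higher in MOLM-13. A stricter test asked whether the difference exceeded 2-fold. It called 2150 genes (17.6%), 1266 (10.4%) higher in OCI-AML2 and 884 (7.25%) higher in MOLM-13, and "more than 2-fold" below means this test. The 3 libraries of a line lay entirely above or below the other 3 for 9051 genes (74.2%). The median log2 difference over all genes tested, OCI-AML2 minus MOLM-13, was 0.000565, and the common biological coefficient of variation was 0.0479. All log2 differences below have this direction and are given ± their standard error.

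**Figure D1:**
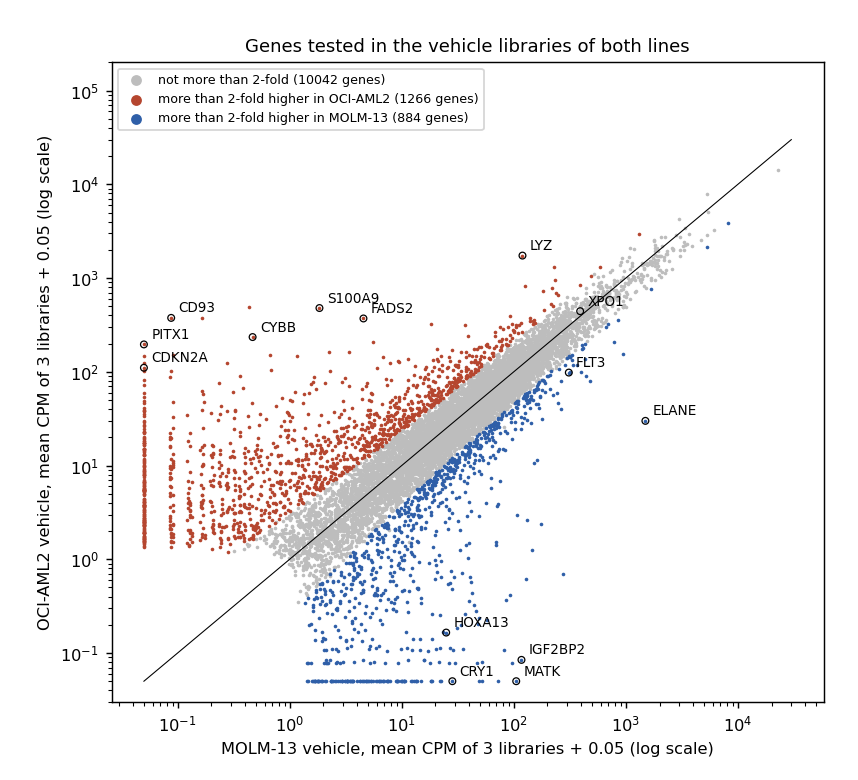
Mean CPM plus 0.05 of the 3 MOLM-13 vehicle libraries (horizontal, log scale) and the 3 OCI-AML2 vehicle libraries (vertical, log scale) for each of 12192 genes tested. Each point is a gene, and the line marks equal levels. The 1266 and 884 coloured genes passed the 2-fold test, and the points along the left and lower edges are genes without a count in a line.

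In all, 458 genes had no count in one line and at least 3 counts in every library of the other. Of these, 300 were without a count in MOLM-13, 176 of them high enough to be among the genes tested, and 158 without a count in OCI-AML2, 101 of them tested. PITX1, a homeobox transcription factor of limb and pituitary development, had 196, 199 and 193 CPM in OCI-AML2 and was 0 in all 3 libraries of MOLM-13, at least 1707-fold lower, where the bound sets the silent line to 3 counts summed over its libraries. UNC5C, a netrin receptor, had 145, 156 and 142 CPM in OCI-AML2 and was 0 in all 3 libraries of MOLM-13, at least 1289-fold lower. LPL, lipoprotein lipase, had 123, 127 and 123 CPM in OCI-AML2 and was 0 in all 3 libraries of MOLM-13, at least 1085-fold lower. The other OCI-AML2 genes with the highest levels in this class included the serine protease PRSS21 (mean 103 CPM), multimerin MMRN1 (81.2), the granulocyte adhesion protein CEACAM6 (72.5), the let-7 inhibitor LIN28B (58.8), the relaxin-family receptor RXFP2 (53.7) and the sphingosine-1-phosphate receptor S1PR4 (46.4).

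CDKN2A encodes the cell cycle inhibitor p16 and the p53 activator p14ARF, on chromosome 9. Its level was 108, 109 and 114 CPM in OCI-AML2 and 0 in all 3 libraries of MOLM-13, at least 963-fold lower. Its neighbour CDKN2B, a related inhibitor, had a mean of 1.16 CPM in OCI-AML2 and no count in MOLM-13, and CDKN2B-AS1, the antisense RNA of the locus, had 60.7 and 0.262 CPM. MTAP, the methylthioadenosine phosphorylase next to it, had 91, 81.2 and 86.3 CPM in OCI-AML2 and 30.9, 32.7 and 30.9 CPM in MOLM-13, a log2 difference of 1.45 ± 0.07 (edgeR adjusted p = 1.15e-21). Unlike CDKN2A, MTAP was thus read in all 6 libraries, with the MOLM-13 libraries all below those of OCI-AML2. KLHL9, FOCAD and MLLT3, further along the same arm, were also read in both lines, with mean CPM of 34.9 against 17.3, 37.8 against 21.1 and 18 against 8.04 in OCI-AML2 and MOLM-13, each higher in OCI-AML2 by the first test. Libraries were not strand-specific, so reads of CDKN2A and its antisense neighbours cannot be told apart where they overlap.

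In the reverse direction, MATK, a kinase that inhibits SRC-family kinases, was 0 in all 3 libraries of OCI-AML2 and had 106, 108 and 101 CPM in MOLM-13, at least 1151-fold higher. IGF2BP1, an RNA-binding protein of fetal tissue, was 0 in all 3 libraries of OCI-AML2 and had 68.8, 73.7 and 72.5 CPM in MOLM-13, at least 787-fold higher. Its relatives followed the same direction with a few counts in OCI-AML2: IGF2BP2 had means of 0.0344 and 117 CPM in OCI-AML2 and MOLM-13, and IGF2BP3 had 0.228 and 45.8 CPM. LIN28B, which was read in OCI-AML2 only, and the 3 IGF2BP genes, which were high in MOLM-13, are all RNA-binding proteins of fetal tissue and were high in opposite lines. CRY1, a core repressor of the circadian clock that most cells make, was 0 in all 3 libraries of OCI-AML2 and had 25.8, 33 and 26 CPM in MOLM-13. DLX5 and DLX6, neighbouring homeobox genes on chromosome 7, had means of 52.5 and 18.1 CPM in MOLM-13 and no count in OCI-AML2. The remaining MOLM-13 genes of this kind with high levels were MPND (48.6 CPM), the ephrin EFNA5 (22.3), the dynein subunit DYNC1I1 (21.9), ZNF215 (18.7) and the gephyrin gene GPHN (18.3).

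The promoters of 4 of these genes are shown because each gene was read in one line and had no count in the other. They are the 250 bases before the RefSeq start, on the gene's strand, build GRCh38.p14, with every CG dinucleotide, the site of DNA methylation, in capitals. PITX1 lies at chr5:135034229-135034478 (minus strand) and CDKN2A at chr9:21995325-21995574 (minus strand). MATK lies at chr19:3801800-3802049 (minus strand) and CRY1 at chr12:107093550-107093799 (minus strand). The CDKN2A window lies just before the outermost annotated position of the gene, 21995301. The promoter of any start further inside that gene is not shown.
PITX1: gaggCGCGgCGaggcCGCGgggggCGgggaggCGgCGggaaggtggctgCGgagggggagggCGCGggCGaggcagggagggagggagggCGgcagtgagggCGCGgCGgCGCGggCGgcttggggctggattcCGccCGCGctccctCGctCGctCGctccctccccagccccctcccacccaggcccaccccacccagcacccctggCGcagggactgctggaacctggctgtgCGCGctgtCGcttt
CDKN2A: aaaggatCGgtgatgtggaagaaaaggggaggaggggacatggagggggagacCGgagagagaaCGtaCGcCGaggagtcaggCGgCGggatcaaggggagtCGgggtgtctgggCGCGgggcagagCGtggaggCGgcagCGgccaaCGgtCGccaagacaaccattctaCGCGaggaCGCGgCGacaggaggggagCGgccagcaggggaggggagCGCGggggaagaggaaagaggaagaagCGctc
MATK: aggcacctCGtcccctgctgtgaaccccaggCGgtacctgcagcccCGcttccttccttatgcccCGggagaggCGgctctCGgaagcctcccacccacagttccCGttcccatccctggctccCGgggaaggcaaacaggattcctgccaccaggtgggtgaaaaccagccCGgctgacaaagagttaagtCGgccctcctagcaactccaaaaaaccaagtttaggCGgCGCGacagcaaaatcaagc
CRY1: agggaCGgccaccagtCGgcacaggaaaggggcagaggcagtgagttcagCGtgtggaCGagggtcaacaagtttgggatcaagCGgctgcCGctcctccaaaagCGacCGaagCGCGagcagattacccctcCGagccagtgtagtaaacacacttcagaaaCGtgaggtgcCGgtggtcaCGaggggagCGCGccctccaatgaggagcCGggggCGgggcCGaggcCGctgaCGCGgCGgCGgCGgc
These windows held 29, 24, 13 and 25 CG dinucleotides, in that order. CG reads the same on both strands, and 93.6% of all 27305 promoters in the table held at least 1. The median over all of them was 11 and the quartiles were 3 and 23. Over the genes tested with a promoter in the table (9551 of 12192), the median number was 21 and the quartiles were 14 and 28. Over the genes without a count in MOLM-13 (218 of 300 with a promoter) the median was 13 and the quartiles 4 and 22. Over those without a count in OCI-AML2 (110 of 158) the median was 19 and the quartiles 9 and 27.8. Of these 300 and 158 genes, 176 and 101 were among the genes tested. The 4 printed windows include both CG-rich and less rich promoters, and DNA methylation was not analysed here.

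Some genes without a count lay next to each other. On chromosome 12, the 6 genes CD69, KLRF1, CLEC2B, KLRF2, CLEC2A and LINC02470 followed each other over 191 kb and had no count in MOLM-13. They belong to the natural killer gene complex, which encodes C-type lectin receptors. Neighbours here are symbols with a position and a count in any vehicle library, so symbols without such a count can lie between them. CD69, an early activation antigen, had 49.7, 46 and 49.2 CPM in OCI-AML2 and was 0 in all 3 libraries of MOLM-13, at least 419.8-fold lower. Further along, CLEC12B, CLEC9A and CLEC7A also had no count in MOLM-13. CLEC12A, an inhibitory receptor of myeloid cells, had 60.8, 68 and 58.5 CPM in OCI-AML2 and 0.125, 0 and 0.216 CPM in MOLM-13, and CLEC1B, a receptor of platelets and myeloid cells, had 22.9, 23.2 and 20.4 and 0, 0 and 0.108 CPM. For both, the OCI-AML2 libraries lay far above those of MOLM-13, which held 3 counts and 1 count in all (edgeR adjusted p = 2.62e-32 and 8.86e-25). Another pair of lectin receptors on that arm, CLEC4D and CLEC4E, had no count in MOLM-13 either. In OCI-AML2, a run of MTERF2, CRY1 and BTBD11 on the same chromosome and one of CALB2, ZNF23 and ZNF19 on chromosome 16 had no count.

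Among genes with counts in both lines, the steepest differences towards OCI-AML2 included CD93, a C1q-related receptor of myeloid progenitors. It had 378, 390.4 and 359 CPM in OCI-AML2 and 0, 0.113 and 0 CPM in MOLM-13, the latter from 1 count, so that no fold is given. BASP1, a membrane protein of growing axons, had means of 372 and 0.115 CPM in OCI-AML2 and MOLM-13. Towards MOLM-13, WNT7B, a Wnt ligand, had 0, 0.083 and 0.0897 CPM in OCI-AML2 and 86.5, 72.9 and 85.1 CPM in MOLM-13, and NPDC1, a neural protein, had 0, 0 and 0.0897 and 50.2, 52.3 and 53.1 CPM. The metallothionein MT1G, which binds zinc and copper, had 0, 0.083 and 0 CPM in OCI-AML2 and 99.2, 91.9 and 98.8 CPM in MOLM-13. The OCI-AML2 libraries of WNT7B, NPDC1 and MT1G were all near the floor and those of MOLM-13 all far above it. Other metallothioneins had mean CPM of 42.8 and 78.3 (MT1E), 7.36 and 63 (MT1F) and 26.6 and 72.7 (MT2A). Metallothionein copies are near-identical, so the authors' counting could have split or dropped their reads.

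Most monocyte genes were higher in OCI-AML2. Among 28 markers of monocytes and macrophages tested, 14 were more than 2-fold higher in OCI-AML2 and 2 more than 2-fold higher in MOLM-13 (57.1% against 17.6% of all genes tested), with a median log2 difference of 1.48 against 0.000565 over all genes. LYZ, the bacteria-lysing enzyme lysozyme, had 1807, 1614 and 1790.5 CPM in OCI-AML2 and 116, 120.4 and 122 CPM in MOLM-13, a log2 difference of 3.86 ± 0.05 (edgeR adjusted p = 1.78e-43). CYBB, the catalytic subunit of the NADPH oxidase, had 237, 241 and 226 CPM in OCI-AML2 and 0.25, 0.676 and 0.324 CPM in MOLM-13, a log2 difference of 9.08 ± 0.12 (edgeR adjusted p = 4.01e-42). In both genes every OCI-AML2 library was above every MOLM-13 library, and CYBB was barely read in MOLM-13. MNDA, a nuclear antigen of myeloid cells, had means of 129 and 9.24 CPM in OCI-AML2 and MOLM-13. The chemokine receptor CCR2 had 83.3 and 15.8 CPM, the inhibitory receptor LILRB1 33 and 2.73, the adaptor TYROBP 80.02 and 19, the receptor of M-CSF CSF1R 11.8 and 1.39, and the Fc receptor FCGR1A 100.4 and 45.1. Each of these passed the 2-fold test. In bulk RNA, more cells of a type and more RNA per cell cannot be told apart.

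Other monocyte markers were low in OCI-AML2 or higher in MOLM-13. CD14, a defining marker of monocytes, had 2.58, 1.58 and 1.88 CPM in OCI-AML2 and 0, 0.113 and 0.108 CPM in MOLM-13, low in both lines although higher in OCI-AML2. CD4, a T helper antigen that monocytes also carry, was higher in MOLM-13, with 31, 34.4 and 32.9 CPM in OCI-AML2 and 115, 112 and 118 CPM in MOLM-13, a log2 difference of -1.81 ± 0.07. VCAN, the matrix proteoglycan versican, was the other marker more than 2-fold higher in MOLM-13, with means of 0.518 and 2.38 CPM. Without OCI-AML2 library 3, in column order, 1 marker was more than 2-fold higher in MOLM-13. The Fc receptor FCGR2A had 16.6 and 17.9 CPM and MS4A7 17.9 and 17 CPM, with edgeR adjusted p = 0.408 and 0.641. The integrin ITGAM, CD11b, was low in both lines, at 1.84 and 1.76 CPM.

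Granule and neutrophil genes were also mostly higher in OCI-AML2. Of 20 tested, 12 were more than 2-fold higher in OCI-AML2 and 3 in MOLM-13 (75% against 17.6% of all genes), with a median log2 difference of 2. S100A9, a calcium-binding alarmin of mature myeloid cells, had 473, 460.2 and 504 CPM in OCI-AML2 and 1.63, 2.03 and 1.73 CPM in MOLM-13, a log2 difference of 8.05 ± 0.08 (edgeR adjusted p = 2.15e-46). Its partner S100A8 had 145, 157 and 145 CPM in OCI-AML2 and 1, 2.03 and 0.324 CPM in MOLM-13. MS4A3, a membrane protein of granulocyte and monocyte precursors, had 168, 155 and 159.8 CPM in OCI-AML2 and 2.13, 2.82 and 1.62 CPM in MOLM-13. All 3 were thus high in every OCI-AML2 library and at most 2.82 CPM in MOLM-13. The G-CSF receptor CSF3R had means of 111 and 25.4 CPM and the chemokine receptor CXCR2 29.5 and 7.94 CPM.

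The 3 granule genes more than 2-fold higher in MOLM-13 all encode primary granule proteins. ELANE, neutrophil elastase, had 27.9, 34.9 and 26.9 CPM in OCI-AML2 and 1463, 1507 and 1516 CPM in MOLM-13, a log2 difference of -5.64 ± 0.07 (edgeR adjusted p = 7.19e-24). PRTN3, proteinase 3, had 158, 153 and 151 CPM in OCI-AML2 and 931, 946 and 949 CPM in MOLM-13, a log2 difference of -2.61 ± 0.04. MPO, myeloperoxidase, had 11.3, 12.9 and 10.6 CPM in OCI-AML2 and 29.4, 33.1 and 33.9 CPM in MOLM-13, low in both for a gene that leads the primary granule. No library of the lines overlapped for any of the 3. AZU1, azurocidin, lies beside ELANE and PRTN3 on chromosome 19 and differed far less, with 877, 918 and 904 CPM in OCI-AML2 and 1035, 1096 and 1107 CPM in MOLM-13, a log2 difference of -0.26 ± 0.04. CTSG, cathepsin G, went the other way, with means of 352 and 263 CPM.

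**Figure D2:**
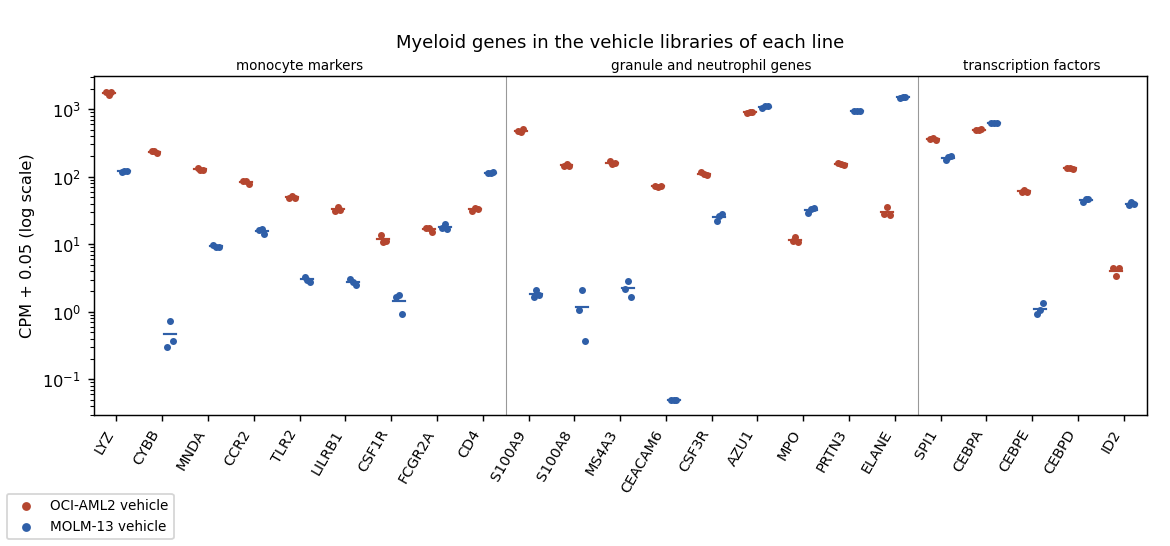
CPM plus 0.05 (vertical, log scale) of 9 monocyte markers, 9 granule and neutrophil genes and 5 transcription factors in the 3 vehicle libraries of OCI-AML2 (red) and of MOLM-13 (blue). Points are libraries and short lines their means. LYZ, CYBB, S100A9 and MS4A3 lie higher in OCI-AML2, and ELANE, PRTN3 and CD4 higher in MOLM-13, with no overlap of libraries.

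Counts among the transcription factors that direct these programmes were near those of all genes. Of 30 haematopoietic factors tested, 2 were more than 2-fold higher in OCI-AML2, 4 were more than 2-fold higher in MOLM-13 (20% against 17.6% of all genes), and the median log2 difference was 0.15. CEBPE, which drives late granulocyte maturation, had 59.7, 62.7 and 60.3 CPM in OCI-AML2 and 0.876, 1.01 and 1.29 CPM in MOLM-13, a log2 difference of 5.81 ± 0.15 (edgeR adjusted p = 4.05e-32). CEBPD, a relative induced in maturing myeloid cells, had 135, 137 and 132 CPM in OCI-AML2 and 42.2, 46.8 and 46.3 CPM in MOLM-13. ID2, an inhibitor of helix-loop-helix factors, had 4.34, 3.32 and 4.4 CPM in OCI-AML2 and 38.3, 41.7 and 39.8 CPM in MOLM-13, a log2 difference of -3.32 ± 0.13. CEBPE and CEBPD were higher in every OCI-AML2 library and ID2 in every MOLM-13 library. The lymphoid and stem cell factor IKZF1 had means of 308 and 296 CPM, and the stem cell factor GATA2 32.2 and 28.7 CPM, neither of them called (edgeR adjusted p = 0.218 and 0.108). GATA2 was called without OCI-AML2 library 2 (log2 difference 0.21) or MOLM-13 library 2 (0.25).

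Toll-like receptor and inflammasome genes were mostly higher in OCI-AML2, and cytokines lay on both sides. Of 23 Toll-like receptor and inflammasome genes tested, 10 were more than 2-fold higher in OCI-AML2 and 1 (TICAM1, an adaptor of TLR3 and TLR4) in MOLM-13, against 10.4% and 7.25% of all genes. By the first test 15 and 5 were called, against 36.6% and 35.7% of all genes. TLR2, which senses bacterial lipoproteins, had 48.8, 51 and 47.8 CPM in OCI-AML2 and 3.25, 2.93 and 2.7 CPM in MOLM-13, and TLR4, the lipopolysaccharide receptor, 11.3, 14.4 and 10.9 and 0.626, 0.789 and 0 CPM. GSDMD, the pore-former of pyroptosis, had means of 87.4 and 25.4 CPM. Of 20 cytokines and chemokines tested, 6 were more than 2-fold higher in OCI-AML2 and 2 (TNF and OSM) in MOLM-13. This was 40%, against 17.6% of all genes. The first test called 9 and 8, against 36.6% and 35.7% of all genes. CXCL8, the neutrophil attractant interleukin-8, had 47.3, 45.7 and 46.6 CPM in OCI-AML2 and 1.252, 1.24 and 1.29 CPM in MOLM-13. TNF ran opposite to it, with 32.8, 32 and 30.8 CPM in OCI-AML2 and 89.1, 97.9 and 94.5 CPM in MOLM-13, a log2 difference of -1.56 ± 0.07. The chemokine receptor CCR1 had 72.9 and 13.8 CPM, more than 2-fold higher in OCI-AML2.

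Genes that type I interferon induces lay on both sides. Of 31 tested, 7 were more than 2-fold higher in OCI-AML2 and 3 in MOLM-13 (32.3% against 17.6% of all genes), with a median log2 difference of 0.14. MX1, a GTPase that blocks viruses, had 1.55, 1.41 and 1.97 CPM in OCI-AML2 and 0.375, 0 and 0 CPM in MOLM-13. BST2, called tetherin, which holds budding viruses on the cell, had 26.4, 34.1 and 25.4 CPM in OCI-AML2 and 72, 72 and 63.9 CPM in MOLM-13. The libraries of the lines did not overlap for either gene, and lay in opposite orders. HERC5, a ligase of the ubiquitin-like protein ISG15, had a mean of 15 CPM in OCI-AML2 and no count in MOLM-13, whereas ISG15 itself was more than 2-fold higher in MOLM-13, with 4.95 and 16.2 CPM.

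Several surface proteins that are targets of antibodies or cell therapies in AML differed between the lines. Of 19 such antigens tested, 6 were more than 2-fold higher in OCI-AML2, among them CLEC12A, CD93, CD44 (means 285 and 79.98 CPM) and CD38 (72.4 and 25.1 CPM), where 10.4% of all genes were called in that direction. The 2 more than 2-fold higher in MOLM-13 were FLT3 and ULBP1, a stress ligand of the receptor NKG2D, at 0.0277 and 7.04 CPM. CD33, the target of gemtuzumab, had 61.3, 56.8 and 64.2 CPM in OCI-AML2 and 34.7, 40.3 and 37.7 CPM in MOLM-13, and IL1RAP, a co-receptor of interleukin-1, had 47.2 and 42.4 CPM with an edgeR adjusted p of 0.0646. Without OCI-AML2 library 2, IL1RAP was called (log2 difference 0.20).

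The HOXA cluster was read in both lines, and HOXA13 at its far end was the member that passed the 2-fold test. Of 11 HOXA genes, 9 were tested, 5 were higher in MOLM-13 and 1 was higher in OCI-AML2 by the first test, against 72.3% of all genes called. HOXA13, the last gene of the cluster, had 0, 0.166 and 0.179 CPM in OCI-AML2 and 26.5, 23.1 and 25 CPM in MOLM-13, a log2 difference of -7.53 ± 0.28 (edgeR adjusted p = 8.55e-26). HOXA9, a driver of leukaemic self-renewal, had 38.8, 30.5 and 33.7 CPM in OCI-AML2 and 44.8, 50.7 and 50.8 CPM in MOLM-13, a log2 difference of -0.51 ± 0.08. HOXA10 had 48.3, 49.7 and 52.3 CPM in OCI-AML2 and 73, 77.1 and 79.4 CPM in MOLM-13, a log2 difference of -0.61 ± 0.07. HOXA13 was near the floor in OCI-AML2 alone, whereas HOXA9 and HOXA10 were moderately higher in all MOLM-13 libraries. HOXA11, between HOXA10 and HOXA13, had 30.4, 29.5 and 28.6 CPM in OCI-AML2 and 28.9, 29.4 and 26.4 CPM in MOLM-13, and these libraries overlapped (edgeR adjusted p = 0.539). HOXA5 went the other way, with 10.9, 10.2 and 8.88 CPM in OCI-AML2 and 6.01, 4.17 and 4.74 CPM in MOLM-13. Per kilobase of the gene's merged exons in GENCODE, the mean level in OCI-AML2 was 11.3 CPM for HOXA9, 13.5 for HOXA10, 5.87 for HOXA5 and 12.8 for HOXA11. In MOLM-13 these levels per kilobase were 16.1, 20.6, 2.91 and 12.2, and that of HOXA13 was 4.89. Further HOXA genes had means of 0.235 and 0.291 CPM (HOXA2, not tested), 2.52 and 4.21 (HOXA3, higher in MOLM-13), 0.407 and 0.385 (HOXA4, not tested), 2.59 and 1.68 (HOXA6) and 13.1 and 15 (HOXA7), the last pair not called. Without OCI-AML2 library 2 or MOLM-13 library 1, HOXA6 was called higher in OCI-AML2, with log2 differences of 0.80 and 0.95. Overlapping antisense RNAs of the cluster could not be separated from these genes.

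The other HOX clusters were nearly silent in both lines. All 7 HOXB genes in the tables together reached at most 1.58 CPM in a library, and HOXB13 was the member tested, with 0.0277 and 1.38 CPM. The 8 HOXC and HOXD genes together reached at most 5.72 CPM. HOXC4 had 0.0299 and 2.95 CPM and HOXC10 3.38 and 1.5 CPM, in opposite directions, both called.

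Partners and targets of the KMT2A fusions were on balance higher in MOLM-13. Of 33 HOX cofactors and KMT2A fusion targets tested, 9 were more than 2-fold higher in MOLM-13 and 1 (AFDN) more than 2-fold higher in OCI-AML2, against 7.25% and 10.4% of all genes, with a median log2 difference of -0.45. SKIDA1, a target of KMT2A fusions, had 0, 0 and 0.179 CPM in OCI-AML2 and 35.8, 35.4 and 33.4 CPM in MOLM-13. JMJD1C, a candidate histone demethylase needed by KMT2A-rearranged cells, had 68.5, 63.6 and 63.5 CPM in OCI-AML2 and 218, 205 and 205 CPM in MOLM-13. AFDN, afadin, is itself a fusion partner of KMT2A in some leukaemias, and gene fusions were not examined in either line. It had 40.2, 35.4 and 40.8 CPM in OCI-AML2 and 4.26, 5.75 and 5.61 CPM in MOLM-13. SKIDA1 and JMJD1C were thus higher in every MOLM-13 library and AFDN in every OCI-AML2 library. MEIS1, the cofactor of HOXA9, had 27, 28.6 and 28.3 CPM in OCI-AML2 and 33.5, 36.7 and 32.4 CPM in MOLM-13, a log2 difference of -0.29 ± 0.09. Another cofactor, PBX3, had 82.1 and 84.2 CPM, with an edgeR adjusted p of 0.595. MEF2C was higher in OCI-AML2, with means of 292 and 243 CPM. In the menin and DOT1L complexes that KMT2A fusions use, MEN1 had 83.7 and 82.6 CPM (adjusted p = 0.805).

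FLT3, STAT5A and SOCS2 were higher in MOLM-13, and STAT5B and FGR higher in OCI-AML2. FLT3, the receptor of FLT3 ligand, had 98, 98.4 and 97.8 CPM in OCI-AML2 and 307, 306 and 317 CPM in MOLM-13, a log2 difference of -1.66 ± 0.04 (edgeR adjusted p = 1.73e-31). STAT5A had 4.34, 4.57 and 4.49 CPM in OCI-AML2 and 30.2, 30.7 and 30.2 CPM in MOLM-13, whereas its paralogue STAT5B had 73.1, 71.6 and 78.2 and 43.2, 41.6 and 40.3 CPM and was higher in OCI-AML2. SOCS2, a feedback inhibitor of STAT5 signalling, had 38.6, 42.1 and 42 CPM in OCI-AML2 and 175, 167 and 165 CPM in MOLM-13. Both FLT3 and SOCS2 had all MOLM-13 libraries above all OCI-AML2 libraries. Of 25 genes tested in a list of FLT3 and STAT5 signalling components and targets, 8 were more than 2-fold higher in MOLM-13 and 2 more than 2-fold higher in OCI-AML2, against 7.25% and 10.4% of all genes, with a median log2 difference of -0.30. The summed level of the list ran the other way, at 2820 to 2890 CPM in the OCI-AML2 libraries and 2530 to 2550 CPM in those of MOLM-13. CCND2, cyclin D2, had means of 0.441 and 13.7 CPM in OCI-AML2 and MOLM-13, the kinase PIM1 3.29 and 10.5, SOCS1 1.1 and 3.81, the cytokine OSM 0.619 and 3.93, the adaptor GAB2 12.2 and 52.1 and the kinase FES 8.08 and 51. The SRC-family kinase FGR ran the other way, with 74.5, 82.1 and 78 CPM in OCI-AML2 and 1.38, 2.03 and 1.29 CPM in MOLM-13. PIM2, PIM3 and the kinase LYN were not called, with edgeR adjusted p = 0.191, 0.0788 and 0.468. PIM3 was called without OCI-AML2 library 1 (log2 difference 0.16) or MOLM-13 library 3 (0.17).

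**Figure D3:**
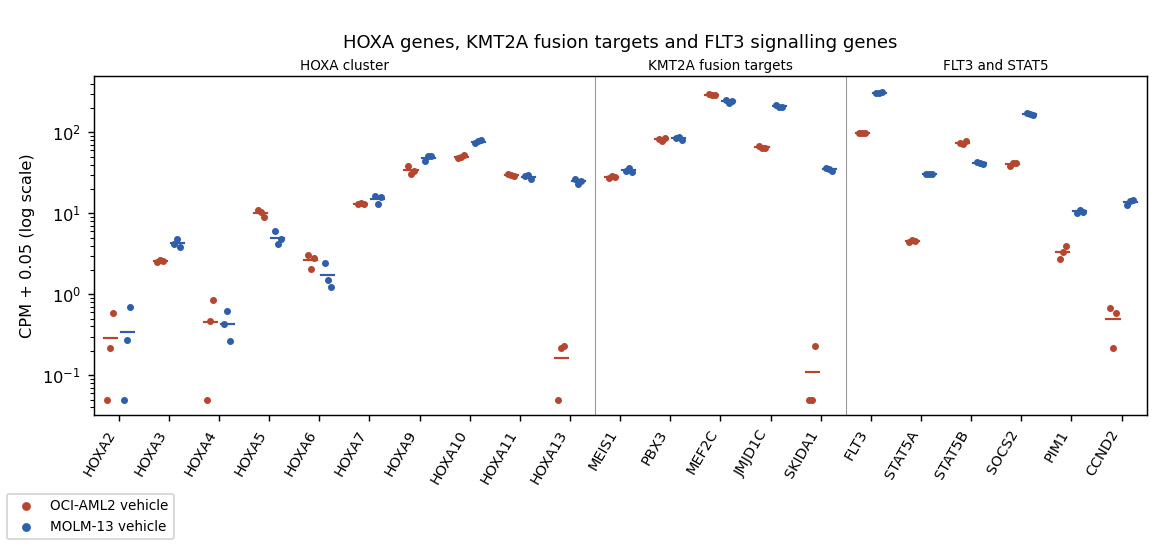
CPM plus 0.05 (vertical, log scale) of 10 HOXA genes, 5 KMT2A fusion targets and cofactors and 6 genes of FLT3 and STAT5 signalling in the 3 vehicle libraries of OCI-AML2 (red) and of MOLM-13 (blue). Points are libraries and short lines their means. HOXA13, SKIDA1, STAT5A and CCND2 are separated most, while HOXA7, HOXA11 and PBX3 overlap.

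Growth factor and cytokine receptors, a list that includes FLT3, were mostly higher in OCI-AML2. Of 28 tested, 18 were higher there and 7 in MOLM-13 by the first test, against 36.6% and 35.7% of all genes, and 8 and 4 by the 2-fold test, against 10.4% and 7.25%. CSF2RB, the shared beta chain of the GM-CSF and interleukin-3 receptors, had 68, 61.5 and 58.4 CPM in OCI-AML2 and 18.4, 18.1 and 19.4 CPM in MOLM-13, and IGF1R had means of 35 and 8.02 CPM. The erythropoietin receptor EPOR had 11.5 and 30.9 CPM and was more than 2-fold higher in MOLM-13. Of 34 PI3K and AKT pathway genes tested, 6 were more than 2-fold higher in OCI-AML2 and none in MOLM-13, the same 17.6% as over all genes. The first test called 14 and 12, against 36.6% and 35.7% of all genes. Leaving out OCI-AML2 library 1, 2 or 3 or MOLM-13 library 3 gave 1 in MOLM-13. The 6 included the insulin receptor substrates IRS1 (19.7 and 1.27 CPM) and IRS2 (94.7 and 43.2 CPM), the phosphatase INPP4B (24.9 and 4.99 CPM) and the p101 subunit PIK3R5 (63.1 and 11.1 CPM). Counts among ERK feedback and immediate early genes were near those of all genes (20.6% against 17.6%), with 3 of 34 tested more than 2-fold higher in OCI-AML2, DUSP6 among them (45 and 16.8 CPM), and 4 in MOLM-13, FOSL2 among them (34.5 and 84.5 CPM). MYC, a gene that growth signals induce, had 526, 545 and 527 CPM in OCI-AML2 and 504, 520.4 and 535 CPM in MOLM-13 (adjusted p = 0.399).

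Most HLA class I and peptide-loading genes, which show peptides to T cells, were higher in OCI-AML2, and the class II genes were low in both lines. HLA-B had 796, 768 and 794 CPM in OCI-AML2 and 217, 216 and 219 CPM in MOLM-13, a log2 difference of 1.86 ± 0.04. NLRC5, the transactivator of class I genes, had 100.2, 108 and 98.1 CPM in OCI-AML2 and 35.3, 32.3 and 34.1 CPM in MOLM-13, also without overlap. Of 19 class I and peptide-loading genes tested, 13 were higher in OCI-AML2 and 3 in MOLM-13 by the first test, against 36.6% and 35.7% of all genes. The 2-fold test called 4 and 2, against 10.4% and 7.25%. ERAP2, a peptide-trimming enzyme, was more than 2-fold higher in MOLM-13, with means of 3.26 and 26.2 CPM. HLA-DPB1 had 0.103, 0 and 0 CPM in OCI-AML2 and 8.39, 13.9 and 11.8 CPM in MOLM-13, and HLA-DPA1 0.31, 0.581 and 0.0897 and 8.51, 9.47 and 7.98 CPM, so that counts came almost all from MOLM-13. HLA-DQB1 had 0.418 and 2.23 CPM, HLA-DMA 2.73 and 6.56 and HLA-DOB 0.886 and 2.05 CPM, all called higher in MOLM-13, the first of them by the 2-fold test as well. HLA-DRA, usually the most abundant class II gene, had 0.497 and 0.262 CPM and was not tested, and HLA-DRB1, HLA-DRB5, HLA-DQA1 and HLA-DMB were at or under 0.96 CPM in both lines. The class II transactivator CIITA had 33.2 and 36.8 CPM (adjusted p = 0.104), its cofactor RFX5 72.7 and 111 (higher in MOLM-13), and the invariant chain CD74 223 and 186 (higher in OCI-AML2). HLA genes are highly polymorphic and near-identical to each other, and how alleles that differ from the reference affected the authors' counts was not tested.

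Lipid synthesis genes were mostly higher in OCI-AML2. Of 32 genes of cholesterol and fatty acid synthesis tested, 21 were higher in OCI-AML2 and 4 higher in MOLM-13 by the first test, against 36.6% and 35.7% of all genes. The 2-fold test called 7 and 2, against 10.4% and 7.25%, and the median log2 difference was 0.72. FADS2, the delta-6 desaturase that starts the synthesis of long polyunsaturated fatty acids, had 373, 357 and 382 CPM in OCI-AML2 and 4.88, 5.07 and 3.56 CPM in MOLM-13, a log2 difference of 6.37 ± 0.08 (edgeR adjusted p = 4.99e-44). Its neighbour FADS1, the delta-5 desaturase, had 334, 325 and 318 CPM in OCI-AML2 and 17.9, 19.3 and 17.4 CPM in MOLM-13, a log2 difference of 4.16 ± 0.06. ELOVL6, an elongase of saturated fatty acids, had 62.6, 67.6 and 71 CPM in OCI-AML2 and 0.125, 0.451 and 0.431 CPM in MOLM-13. All 3 were far higher in every OCI-AML2 library. In the cholesterol branch, the squalene epoxidase SQLE had 177 and 44.1 CPM, the sterol sensor INSIG1 190.5 and 68.7 and the sterol carrier STARD4 40.7 and 13.6. The regulator SREBF1 had 152 and 148 CPM, with an adjusted p of 0.518.

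Amino acid genes leaned the other way. Of 37 genes of serine synthesis, the ATF4 response and amino acid transport tested, 12 were more than 2-fold higher in MOLM-13 and 2 more than 2-fold higher in OCI-AML2, against 7.25% and 10.4% of all genes, with a median log2 difference of -0.38. ASS1, which makes argininosuccinate in arginine synthesis, had 81.5, 73 and 84.1 CPM in OCI-AML2 and 469, 488 and 482 CPM in MOLM-13, a log2 difference of -2.59 ± 0.05. DDIT4, an inhibitor of mTORC1 induced by stress, had 11.4, 9.46 and 11.2 CPM in OCI-AML2 and 148, 157 and 151 CPM in MOLM-13, a log2 difference of -3.84 ± 0.08. PSPH, the last enzyme of serine synthesis, had 16.5, 19.8 and 17.2 CPM in OCI-AML2 and 65, 66.6 and 71.3 CPM in MOLM-13. All MOLM-13 libraries were above all OCI-AML2 libraries for these genes, and CBS, cystathionine beta-synthase, had no count in OCI-AML2 and 9.14, 10.1 and 7.76 CPM in MOLM-13. The 2 genes that ran opposite were the cystine transporter SLC7A11, with 99.7, 88.2 and 94.9 CPM in OCI-AML2 and 17.4, 20.1 and 14 CPM in MOLM-13, and the pseudokinase TRIB3, with means of 148 and 42.6 CPM. SLC7A11 and TRIB3 are themselves known ATF4 targets, as is DDIT4, so members with that role were found on both sides.

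Genes that handle nucleoside analogues such as cytarabine were also compared. Of 25 tested, 4 were more than 2-fold higher in OCI-AML2 and 1 (CTPS2, a CTP synthase) in MOLM-13, 20% against 17.6% of all genes. SAMHD1, which hydrolyses deoxynucleotides and the active form of cytarabine, had 107, 109.9 and 108 CPM in OCI-AML2 and 24.4, 21.2 and 18.4 CPM in MOLM-13, a log2 difference of 2.35 ± 0.08. CDA, the cytidine deaminase that inactivates cytarabine, had 31.6, 30.5 and 29.7 CPM in OCI-AML2 and 0, 0 and 0.539 CPM in MOLM-13, a log2 difference of 7.23 ± 0.28. Both breakdown enzymes were thus higher in every OCI-AML2 library. The ribonucleotide reductase subunit RRM1 had 223 and 219 CPM (adjusted p = 0.572). Of 40 antioxidant, aldehyde and drug-metabolising enzymes tested, 8 were more than 2-fold higher in OCI-AML2 and none in MOLM-13 (20% against 17.6% of all genes), among them AKR1C2 (16.7 and 1.5 CPM) and the glutathione transferase GSTM1 (23 CPM and no count). AKR1C and GSTM genes have near-identical copies, so their single values are uncertain. Of 19 ABC transporters tested, 6 were more than 2-fold higher in OCI-AML2, including ABCB10 (302 and 87.9 CPM), and 3 in MOLM-13, including ABCA2 (137 and 436 CPM), against 10.4% and 7.25% of all genes.

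In the p53 pathway, CDKN1A, the CDK inhibitor p21, had 52.6, 51.3 and 48.1 CPM in OCI-AML2 and 135, 143 and 148 CPM in MOLM-13, a log2 difference of -1.49 ± 0.06 (edgeR adjusted p = 3.72e-25). MDM2, the ubiquitin ligase of p53, had 121, 134 and 120.02 CPM in OCI-AML2 and 174, 167 and 159 CPM in MOLM-13. Both were higher in every MOLM-13 library. Across the 32 p53 targets tested, however, 13 were higher in OCI-AML2 and 14 higher in MOLM-13 by the first test (84.4% called against 72.3% of all genes), and the median log2 difference was -0.06. BAX, a killer of the BCL2 family, was higher in OCI-AML2, at 179 and 111 CPM. Of 26 genes of the CDK inhibitor and RB list tested, 2 were more than 2-fold higher in each line (15.4% against 17.6% of all genes), and 4 in OCI-AML2 without its library 1.

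The BCL2 family, which holds guards and killers of the mitochondrial membrane, had 22 listed genes in the tables and 18 tested, of which 1 was more than 2-fold higher in OCI-AML2 and 2 in MOLM-13 (16.7% against 17.6%). BCL2, the target of venetoclax, had 237, 245 and 248 CPM in OCI-AML2 and 194, 175 and 188 CPM in MOLM-13, a log2 difference of 0.39 ± 0.04. MCL1 had 223, 209.7 and 203 CPM in OCI-AML2 and 285, 296 and 293 CPM in MOLM-13, a log2 difference of -0.46 ± 0.04. These guards thus lay on opposite sides, each by less than 2-fold. BCL2A1, a guard of mature myeloid cells, had 9.3, 8.55 and 9.06 CPM in OCI-AML2 and 0.25, 0.225 and 0.324 CPM in MOLM-13, and BCL2L1 had 31.6 and 22.5 CPM. Among BH3-only killers, BCL2L11, called BIM, had 44.8, 44.1 and 47.6 CPM in OCI-AML2 and 117, 104 and 109.6 CPM in MOLM-13, and BIK had 0.826, 0.664 and 0.987 and 16.9, 24.2 and 19.9 CPM. Both BIM and BIK were higher in every MOLM-13 library, while BBC3 (22.3 and 15.6 CPM), PMAIP1 (25.2 and 21.7) and BAD (21.9 and 16.6) were higher in OCI-AML2 by the first test. BID (77.6 and 86.5), BAK1 (47.3 and 73.9), BCL2L13 (66 and 85.2) and BNIP3 (23.7 and 47.5) were higher in MOLM-13, and BNIP3L (46.8 and 22.3) in OCI-AML2. BMF, BCL2L2 and BCL2L12 were not called (adjusted p = 0.0661, 0.454 and 0.989), and HRK, BOK, BCL2L10 and BCL2L15 were too low to be tested. Counting libraries in column order, the call of BID was lost without OCI-AML2 library 3 (log2 difference -0.14), MOLM-13 library 1 (-0.14) or MOLM-13 library 3 (-0.14). It was also lost with DESeq2's Wald test (-0.15). That of PMAIP1 was lost without OCI-AML2 library 2 (0.16), MOLM-13 library 2 (0.21) or MOLM-13 library 3 (0.19). The PMAIP1 call was also lost with upper quartile scaling (0.20), no filter (0.22), DESeq2's Wald test (0.23) and thinned libraries (0.22).

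Of 39 KMT2, polycomb and chromatin regulators tested, 25 were called by the first test, against 72.3% of all genes. The 2-fold test called 1 (2.56% against 17.6% of all genes), KDM5B, a demethylase of histone H3 lysine 4. It had 137, 146 and 145 CPM in OCI-AML2 and 25.3, 26.5 and 27.9 CPM in MOLM-13. Of 12 DNA methylation genes tested, 3 were more than 2-fold higher in OCI-AML2 and none in MOLM-13, against 10.4% and 7.25% of all genes. The first test called 4 higher in OCI-AML2 and 3 higher in MOLM-13, against 36.6% and 35.7% of all genes. The median log2 difference was -0.04. The summed level of the list ran the other way, at 1600 to 1610 CPM in the OCI-AML2 libraries and 2160 to 2180 CPM in those of MOLM-13. TET1, which oxidises methylcytosine, had 6.2, 5.39 and 6.28 CPM in OCI-AML2 and 0, 0 and 0.108 CPM in MOLM-13, and the methyltransferases DNMT3A and DNMT3B had means of 26.7 and 10.5 CPM and of 21.9 and 8.05 CPM. All 3 were thus higher in OCI-AML2, without overlap of libraries. TET2 (43.2 and 23.5 CPM) was also higher in OCI-AML2, by less than 2-fold.

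Cytosolic ribosomal protein genes were shifted together. Of 60 tested, 54 were higher in MOLM-13 and none higher in OCI-AML2 by the first test (35.7% and 36.6% of all genes), with 6 not called and a median log2 difference of -0.43. Together they took 81700 to 89700 CPM in the OCI-AML2 libraries and 125000 to 127000 CPM in the MOLM-13 libraries. The 2 that passed the 2-fold test were RPL22, with 38.8, 43.4 and 40.01 CPM in OCI-AML2 and 145, 134 and 144 CPM in MOLM-13, and RPS18, with 2129, 1975 and 2279 and 5379, 5173 and 5286 CPM. RPS2 had means of 3225 and 6163 CPM, and the elongation factors EEF1A1 and EEF2, whose mRNAs share the terminal oligopyrimidine start of ribosomal protein mRNAs, had 14136 and 22689 CPM and 3872 and 8149 CPM. RPL19, called although its libraries overlapped, and RPS19, not called, lay close to equality, with log2 differences of -0.09 ± 0.04 and -0.06 ± 0.04 (adjusted p = 0.0293 and 0.15). The call of RPL19 was lost without OCI-AML2 library 1 (-0.06), MOLM-13 library 1 (-0.08) or MOLM-13 library 3 (-0.09), and with DESeq2's Wald test (-0.09). RPS19 was called without OCI-AML2 library 2 (-0.08). The 10 most abundant genes of each library took 5.12 to 5.25% of its counts in OCI-AML2 and 6.88 to 6.94% in MOLM-13. Ribosomal protein genes have many processed copies in the genome, and how the authors' counting assigned shared reads is not given in the sources used here.

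In contrast, the lists of growth machinery held no gene past the 2-fold test. It called none of 42 DNA replication genes, 34 mitosis genes, 31 proteasome subunits, 39 nuclear-encoded respiratory chain genes and 32 nuclear transport genes. Over all genes it called 17.6%. By the first test, 33, 30, 23, 21 and 24 of the listed genes were called, against 72.3% of all genes. Of these, 10, 23, 12, 11 and 15 were higher in OCI-AML2 and 23, 7, 11, 10 and 9 higher in MOLM-13. Over all genes the shares were 36.6% and 35.7%. DNA replication genes thus leaned towards MOLM-13 (median log2 difference -0.13) and mitosis genes towards OCI-AML2 (0.24). Leaving out OCI-AML2 library 2 gave 1 DNA replication gene more than 2-fold higher in MOLM-13, and leaving out OCI-AML2 library 3 gave 1 proteasome and 1 respiratory chain gene. PCNA, the replication clamp, had 312, 317 and 304 CPM in OCI-AML2 and 306, 318 and 324 CPM in MOLM-13 (adjusted p = 0.578), and MYBL2, a factor of dividing cells, had means of 322 and 310.1 CPM (adjusted p = 0.212). XPO1, the target of selinexor, had 466, 420.2 and 444 CPM in OCI-AML2 and 398, 376 and 400.2 CPM in MOLM-13, a log2 difference of 0.18 ± 0.04 (adjusted p = 0.000162). P2RY2, a receptor of extracellular ATP and UTP, had 111, 112 and 104 CPM in OCI-AML2 and 68.6, 74 and 78 CPM in MOLM-13, a log2 difference of 0.56 ± 0.06 (adjusted p = 2.55e-11). Both were higher in every OCI-AML2 library, by less than 2-fold.

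**Figure D4:**
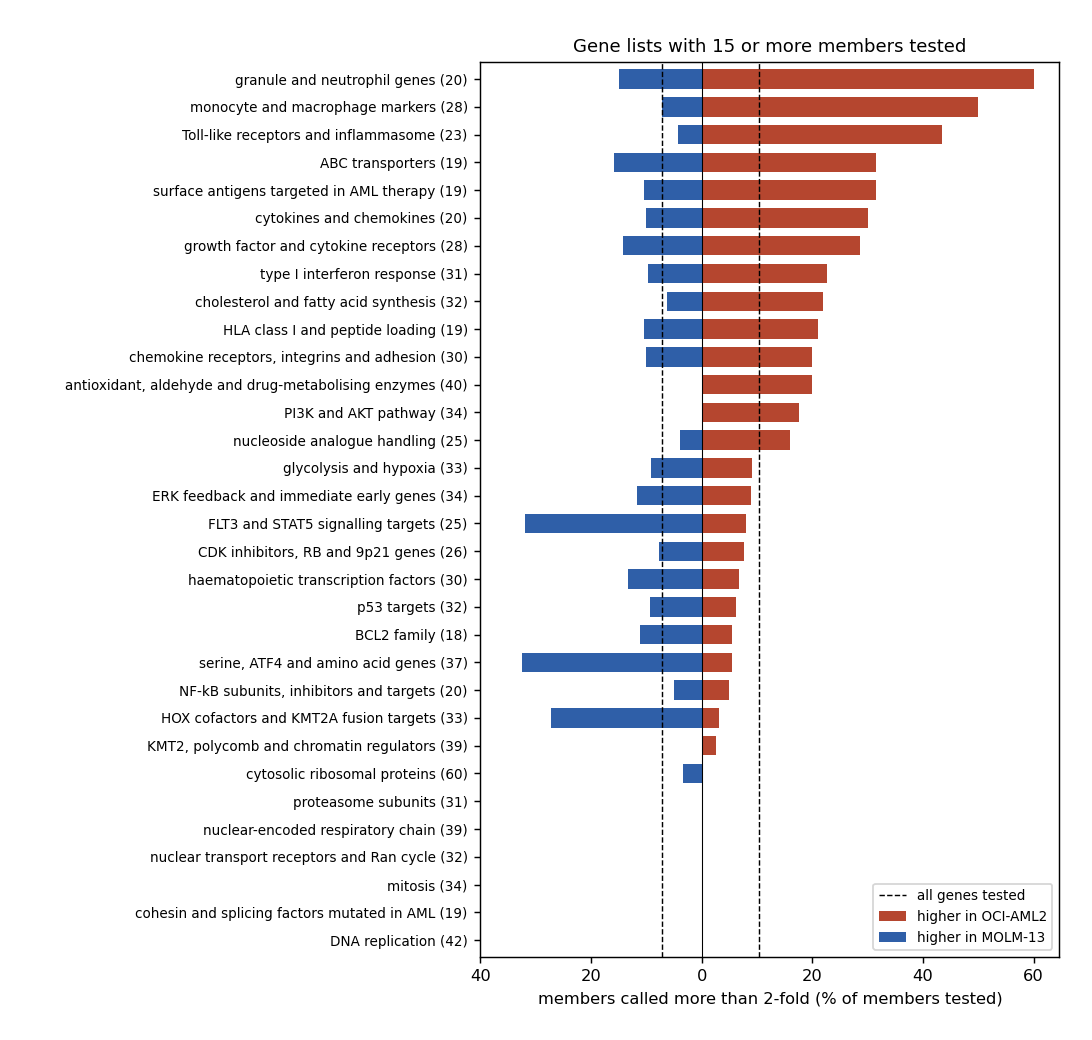
Share of tested members called more than 2-fold higher in OCI-AML2 (red, to the right) or in MOLM-13 (blue, to the left) for each gene list with 15 or more members tested, in percent of the members tested (number in parentheses). Dashed lines give the same shares over all genes tested, 10.4% and 7.25%. Granule genes, monocyte markers and Toll-like receptor genes extend furthest to the right, and the amino acid, FLT3 and KMT2A lists furthest to the left.

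The differences were not spread evenly along the genome. By chromosome, the median log2 difference was -0.57 over 222 genes tested on chromosome 13, -0.42 over 463 on chromosome 10, -0.38 over 912 on chromosome 19, -0.24 over 667 on chromosome 12 and -0.14 over 603 on chromosome 6, and it was between -0.01 and 0.18 on each of the other autosomes and on X. On chromosome 13, 69.4% of genes were higher in MOLM-13 and 16.7% higher in OCI-AML2, against 35.7% and 36.6% over all genes tested. Genes were then put into 295 blocks of about 40 neighbours in genome order, and the median of log2((mean CPM of OCI-AML2 + 0.5) / (mean CPM of MOLM-13 + 0.5)) was taken in each block, with no test. Of the blocks, 52 had a median below -0.3 and 19 a median above 0.3. The blocks below -0.3 included all 6 of chromosome 13, 14 of 23 on chromosome 19, 9 of 17 on chromosome 12 and 8 of 12 on chromosome 10.

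Many of the shifted blocks formed runs, while others stood alone. The runs below and their ends were chosen from the block medians, so their medians and counts are descriptions and no test. Over all genes tested, 35.7% were higher in MOLM-13 and 36.6% higher in OCI-AML2. On chromosome 19, the 560 genes from MIER2 to C19orf54 (GRCh38 positions 301444 to 40751553) had a median of -0.61, and 425 of them were higher in MOLM-13 and 68 higher in OCI-AML2. The 352 genes from SNRPA to the end of the chromosome had a median of 0.07, with 94 higher in MOLM-13 and 129 higher in OCI-AML2. On chromosome 12, the 316 genes up to CS had a median of 0.15 and the 351 genes from CNPY2 on had a median of -0.47. At the start of chromosome 1, the 82 genes from LINC01128 to KIF1B had a median of -0.96, and 75 of them were higher in MOLM-13. In the first block there, all 41 genes were called higher in MOLM-13. Towards OCI-AML2, the 76 genes from PLEKHG3 to IRF2BPL on chromosome 14 had a median of 0.98 with 60 higher in OCI-AML2, and the 120 genes from SERPINI1 to the end of chromosome 3 a median of 0.82 with 92 higher in OCI-AML2. The medians in single libraries of these runs ranged from -0.98 to -0.93 at the start of chromosome 1 and from 0.97 to 1.04 on chromosome 14, each library against the mean of the other line. FLT3 lies in the run of chromosome 13, ELANE, PRTN3 and MATK in that of chromosome 19 and RPL22 in that of chromosome 1. Their differences were larger than the medians of those runs. AZU1, also in the run of chromosome 19, differed by less than its median, with a log2 difference of -0.26. Other named genes in the runs were not compared with the medians. DNA copy number was not analysed here.

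**Figure D5:**
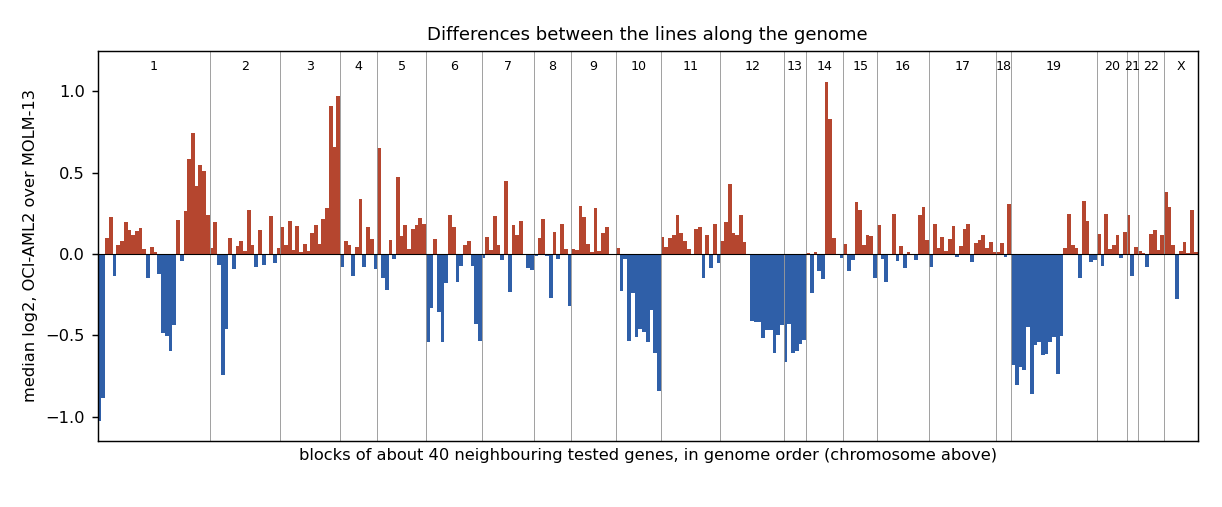
Median log2 ratio of OCI-AML2 over MOLM-13 (vertical, pseudocount of 0.5 CPM) in 295 blocks of about 40 neighbouring tested genes, in genome order with chromosomes named above. Each bar is a block, red above 0 and blue below. The runs below 0 on chromosomes 10, 12, 13 and 19 and above 0 on chromosomes 3 and 14 stand out, with ends at block borders inside chromosomes 12 and 19.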

How the data were processed

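Polyadenylated RNA of 2 cell lines was sequenced as paired ends without strand information, per the labels' protocols. The authors deposited raw counts per gene symbol, 1 table per line, and a repeated column letter marks the 3 vehicle libraries of each without a replicate number. Per the submitters' processing notes, STAR, the build hg38, DESeq2 and R 3.6.1 were used. No counting program or gene annotation is named there. The tables held in addition selinexor columns, which were not used, and the deposited normalised tables were not used because they were scaled for each line separately.

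The vehicle columns were joined by symbol, with a symbol in 1 table only set to 0 in the other line. Each table omits symbols without a count in all of its 6 libraries. TMM scaling over the 6 libraries, filterByExpr (minimum count 10, minimum total 15) and robust quasi-likelihood F tests were run in edgeR 4.0.16 under R 4.3.3. P-values were adjusted by the Benjamini-Hochberg method over the 12192 genes tested, at 0.05. The test of more than 2-fold used glmTreat on the same fit, at a log2 difference of 1. Genes without a count had 0 in all libraries of a line and at least 3 in every library of the other, and their folds are lower bounds against 3 counts over the group of 3 libraries. The script was tested on simulated data. Alternatives were DESeq2 1.42.0 (size factors and Wald test), limma voom 3.58.1, upper quartile scaling, no filter, symbols in both tables only, thinned libraries and leaving out each library.

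Genes were placed by symbol in GENCODE 29 (GRCh38), which matched 11885 of the tested symbols (97.5%), and promoters are from RefSeq (GRCh38.p14). Libraries held 8160133 to 11769061 counts. Total counts set the precision, and floors cover counting error only.

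The members and the 50 gene lists were chosen with earlier results of these data known. Named genes were, in each direction, the 15 largest differences among called genes with at least 10 CPM in the higher line and no overlap, the 10 genes without a count in a line with the highest level in the other, and the 10 most abundant of each line. From each list came up to 6 members called more than 2-fold with the smallest p and at least 5 CPM, and up to 3 members closest to equality. XPO1, P2RY2, CDKN1A, MDM2, MYC, FLT3 and all HOX, HLA class II and BCL2 family members were added. Further genes, such as MPO, CD33, SPI1, CD14, MEIS1, JMJD1C and MLLT3, were chosen after their values were seen. Pseudogenes and symbols that are only identifiers were skipped, and a few genes chosen by these rules are not reported here.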

Additional observations from a re-analysis of the deposited data

How the results depend on the processing

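The number of genes called by the first test was 8196 to 9557 over all alternatives, against 8816, and the number more than 2-fold apart 1755 to 2521, against 2150. Leaving out each library in turn gave 8459 to 8775 and 2138 to 2170. The median log2 difference of all genes moved to between -0.0187 and 0.0379. Allowing up to 3 counts in the silent line gave 533 genes for MOLM-13 and 288 for OCI-AML2 in place of 300 and 158, and asking for at least 10 counts in every library of the other line gave 192 and 100. Leaving out a library gave 325 to 369 and 166 to 196. With DESeq2's size factors the median of chromosome 2 was 0.0284, against 0.0221, and that of chromosome 10 was -0.416, against -0.422. The median of all genes with these factors was 0.007, against 0.000565. Over 361 named genes, 43 values lost their call, 20 gained one, 4599 did neither and 0 reversed. Of the counts in lists, 32 moved and 1268 did not. With DESeq2's Wald test, 1 monocyte, 1 lipid and 1 interferon gene was more than 2-fold higher in MOLM-13. No paired analysis was possible because the columns carry no replicate numbers.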

Other observations

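Zinc finger genes were counted among the genes read in a single line. Symbols of the forms ZNF, ZFP, ZSCAN and ZKSCAN made up 24 of the 300 genes without a count in MOLM-13 (8%), against 458 of the 12718 genes with at least 3 counts in every OCI-AML2 library (3.6%). They made up 9 of the 158 without a count in OCI-AML2 (5.7%), against 427 of the 12281 genes with at least 3 counts in every MOLM-13 library (3.48%). Many such genes encode KRAB zinc finger repressors, many of which bind transposable elements. Neighbouring pairs without a count in MOLM-13 were ZNF253 and ZNF93, ZFP14 and ZFP82, ZNF347 and ZNF665, and ZNF470 and ZNF71, all on chromosome 19. By the first test, 193 of 445 zinc finger genes tested were higher in MOLM-13 and 101 higher in OCI-AML2, against 35.7% and 36.6% of all genes. On chromosome 19 the figures were 83 and 58 of 198 tested. Of all genes tested there, 56.9% were higher in MOLM-13 and 21.6% higher in OCI-AML2.

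Among 13 imprinted genes tested, 3 were more than 2-fold higher in each line, against 10.4% (OCI-AML2) and 7.25% (MOLM-13) of all genes. PLAGL1, a zinc finger factor read from the paternal copy, had 18.9, 19.4 and 22.4 CPM in OCI-AML2 and 3.5, 4.28 and 3.34 CPM in MOLM-13. PHLDA2, a growth-limiting gene read from the maternal copy, had 0.207, 0.249 and 0 and 4.88, 7.89 and 7.01 CPM, so that the libraries of these genes lay in opposite orders. TP73, a relative of p53 included in that list, had 0.103, 0.166 and 0 CPM in OCI-AML2 and 17.8, 18.5 and 19 CPM in MOLM-13.

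MSI2, which holds back differentiation of blood stem cells, had 0.31, 0.166 and 0.0897 CPM in OCI-AML2 and 44.2, 55.1 and 47.3 CPM in MOLM-13, a log2 difference of -7.97 ± 0.22 (edgeR adjusted p = 6.22e-31). BEX1, a small signalling adaptor, had 0.62, 0.415 and 0.897 CPM in OCI-AML2 and 265, 283 and 278 CPM in MOLM-13. Both were under 1 CPM in every OCI-AML2 library and far above it in all MOLM-13 libraries.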
